A study of Homo sapiens with 3 samples.

Results

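Of 11644 genes that could be followed on all 3 arrays of HepG2 cells, 72 (0.618%) had a lower mRNA signal after both the low and the high dose of etoposide. The 72 genes were chosen by their measured values: the log2 signal had to be more than 0.8 below the control at 10 μM and also at 100 μM, so each stood at 57.4% of control or less at both doses. Those differences therefore describe the genes and are not evidence for them. The 72 genes include suppliers of amino acids and stress regulators (SLC7A11, ASNS, TRIB3, DDIT3), the hormone of iron balance HAMP, 2 metallothioneins, the growth regulator MYC, Wnt receptors and their regulator ZNRF3, and the fucosyltransferase FUT1.

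HepG2 is an established human hepatocellular carcinoma line with wild-type p53. Etoposide is an anticancer drug that traps topoisomerase II on DNA and so causes double-strand breaks. The cells received 0, 10 or 100 μM etoposide for 30 h (the labels call the 0 μM cells untreated and the paper calls its array control DMSO), and total RNA of each condition went onto 1 single-color Agilent array. The study compared the profiles to separate genes particular to senescence, which it induced with the low dose, from genes that answer DNA damage in general. The paper proposes that high doses lead mainly to apoptosis in these cells. With 1 array per condition, the dose, the culture and the array cannot be told apart, the differences cannot be set against a spread between replicates and no test was run. In RNA from a whole culture, a gene's fall in fewer cells and a smaller fall in all cells cannot be told apart either.

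Signals below are the background-corrected spot intensities of the scanner software. Differences and percentages of control were taken after each array was scaled to its 75th percentile, which was a signal of 514 for the control, 536 at 10 μM and 432 at 100 μM. Each ± is a spot SD that combines the control array and the array of the dose. For a probe printed once it comes from the SD between repeated spots of similar brightness. For the 5 genes whose probe was printed 10 times it is the smaller standard error of the mean of their own spots. It covers spot noise and not the spread between cultures. All 11 hepatocyte markers were well above background on each array, whereas 5 of 6 fibroblast markers were not above background on the control array. Of 4 endothelial markers, 2 were well above background on the control array, 2 at 10 μM and 3 at 100 μM. Of 5 leukocyte markers, 4 were well above background on each array. The summed signal of the leukocyte markers was 1630 on the control array, 2055 at 10 μM and 2863 at 100 μM, and its part in the results was not tested.

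When amino acids run short or unfolded proteins collect, kinases slow translation and the transcription factor ATF4 is made. ATF4 pairs with C/EBP proteins on short composite elements (CARE) and turns on amino acid transporters, synthetases and regulators such as DDIT3 and TRIB3. In hepatocytes, hepcidin (the product of HAMP) sets iron export, metallothioneins bind zinc and copper, and Wnt signals through Frizzled receptors shape growth.

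The CARE letters TGATGNAA, searched on both strands from 250 bases before to 50 bases after the start, stood in 3 of the 53 member genes with a promoter in the RefSeq table (5.66%) and in 168 of 9467 genes in all (1.77%). The 3 genes were FUT1, KLHDC7B and ASNS, which were also 3 of the most lowered genes. Their 250 bases before the start are shown for that reason, in GRCh38.p14, with the matching letters in capitals. FUT1 lies on the minus strand at chr19:48755359-48755608, KLHDC7B on the plus strand at chr22:50545649-50545898 and ASNS on the minus strand at chr7:97872409-97872658.
FUT1: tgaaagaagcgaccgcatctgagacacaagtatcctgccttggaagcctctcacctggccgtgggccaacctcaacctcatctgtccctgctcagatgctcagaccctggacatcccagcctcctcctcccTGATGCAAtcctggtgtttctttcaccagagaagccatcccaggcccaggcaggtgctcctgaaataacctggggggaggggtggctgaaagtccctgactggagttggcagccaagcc
KLHDC7B: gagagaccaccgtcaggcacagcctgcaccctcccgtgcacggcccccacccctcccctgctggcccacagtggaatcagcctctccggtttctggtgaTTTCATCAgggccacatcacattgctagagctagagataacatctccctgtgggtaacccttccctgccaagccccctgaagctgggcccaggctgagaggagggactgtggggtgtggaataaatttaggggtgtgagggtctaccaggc
ASNS: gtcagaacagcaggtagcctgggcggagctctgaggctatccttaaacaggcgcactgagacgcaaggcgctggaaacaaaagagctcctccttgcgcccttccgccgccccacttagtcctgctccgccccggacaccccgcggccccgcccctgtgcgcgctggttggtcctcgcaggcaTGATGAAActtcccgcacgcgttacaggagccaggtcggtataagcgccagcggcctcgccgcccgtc
The match begins 119 bases before the start in FUT1, 151 in KLHDC7B, where it is read on the other strand, and 68 in ASNS, whose promoter is a textbook example of amino acid control. The 168 genes that hold the letters had median log2 differences of −0.14 at 10 μM and −0.03 at 100 μM, and 3 of them (1.79%, against 0.618% of all genes) were lowered at both doses. The 0.618% is over all 11644 genes, whereas the 168 come from the 9467 with a promoter, of which 53 are members. The 3 lowered genes are the members from which the motif was picked. The motif and the promoters shown were picked after the values had been seen. ASNS is on the list of ATF4 pathway genes described below, and FUT1 and KLHDC7B are not. The searched promoters of DDIT3, DDIT4, CTH and SLC6A9, which are members on that list, did not hold the letters.

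Of the 11644 genes, 241 (2.07%) were more than 0.8 below the control at 10 μM and 690 (5.93%) at 100 μM. The 72 genes were 29.9% of the first set and 10.4% of the second. Both differences use the same control array, so a high control signal lowers both at once. In the other direction, 313 genes were more than 0.8 above the control at both doses. A further 46 genes were above at 10 μM and below at 100 μM, and 5 genes were below at 10 μM and above at 100 μM.

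**Figure D1:**
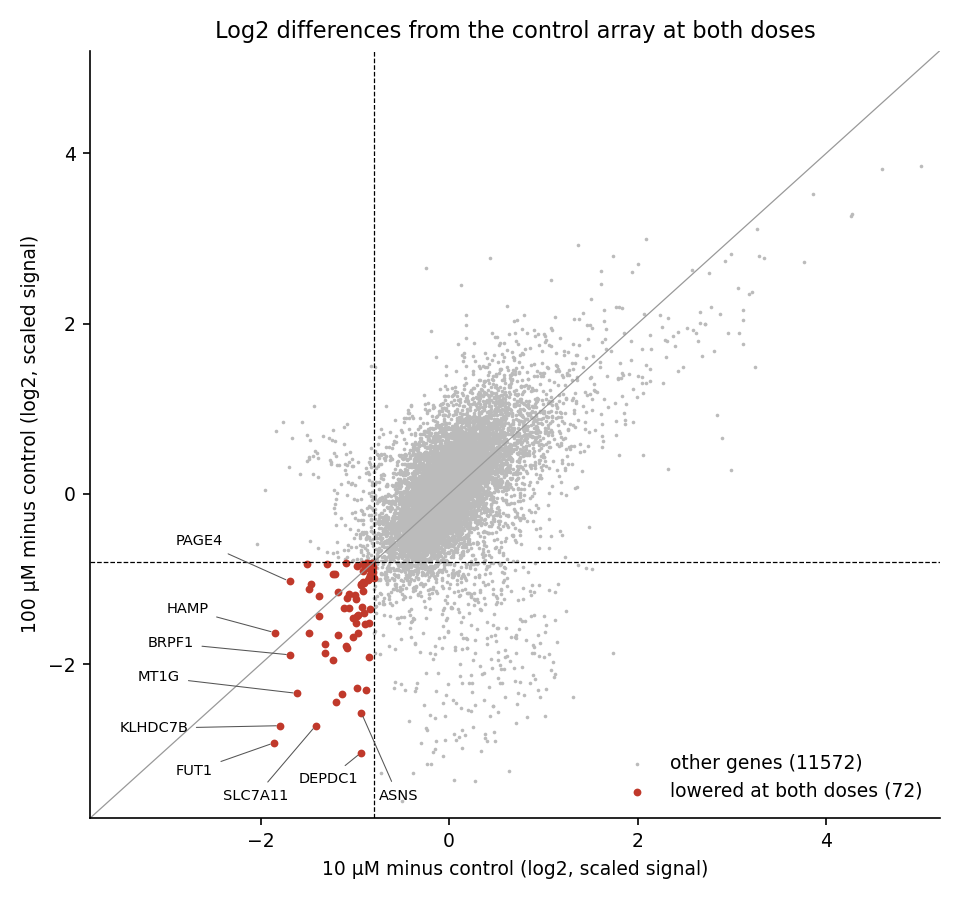
Log2 difference from the control array at 10 μM (x axis) and at 100 μM (y axis) for the 11644 genes, with dashed lines at −0.8. The 72 red points fill the lower left corner by the rule that chose them, and most of them (53) lie below the line of equal differences.

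Across the 72 genes the median log2 difference was −0.98 at 10 μM, with a range from −1.86 to −0.80, and −1.21 at 100 μM, with a range from −3.04 to −0.81. The medians of all genes were −0.02 and 0.05. At both doses 27 genes were below −1, and 10 genes were below −2 at 100 μM, whereas none reached −2 at 10 μM. The high dose gave the lower value in 53 genes, by more than 1 in 9 of them, and the low dose in 19. In 35 genes the values at the 2 doses were within 0.25 of each other. For the member genes the median difference between the doses was −0.16, against 0.05 for all genes.

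The genes were grouped by what they are known to do, after their values had been seen. The group for amino acid supply and stress response had 12 genes, of which 10 were lower at 100 μM than at 10 μM, and a median difference of −0.97 at 10 μM and −1.58 at 100 μM. SLC7A11, the cystine transporter that feeds glutathione synthesis, gave signals of 4579 in the control, 1792 at 10 μM and 584 at 100 μM. This was 37.5% and then 15.2% of control, a stepwise fall with dose (log2 −1.41 ± 0.06 and −2.72 ± 0.07). Asparagine synthetase, ASNS, went from 31797 to 17396 and 4502, or 52.4% and 16.8% of control (−0.93 ± 0.06 and −2.57 ± 0.06). DDIT4 encodes an inhibitor of mTORC1 and went from 7297 to 4136 and 1245, or 54.3% and 20.3% of control. TRIB3, a pseudokinase that restrains Akt and ATF4, was the brightest of the 72 genes at 53540 and gave 26297 and 12855.

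CTH makes cysteine from cystathionine and fell to 44.3% and 31.7% of control. DDIT3 (CHOP), a transcription factor of the stress response, was at 50.5% and 34.9%, and JDP2, a repressor of the AP-1 family, at 51.3% and 32.2%. The glycine transporter SLC6A9 was at 49.3% and 36.3%. The remaining 4 differed less between the doses: the amino acid transporter SLC43A1, the urea cycle enzyme ASS1, the alanine aminotransferase GPT2 and the aromatic amino acid decarboxylase DDC. They lay between 46.9% and 53.9% at 10 μM and between 47.5% and 57.0% at 100 μM. DDC was one of the 2 members of this group with the higher value at the high dose, by 0.28 in log2 (−1.09 ± 0.06 and −0.81 ± 0.06). Its unscaled signal was 3450 at 10 μM and 3377 at 100 μM.

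**Figure D2:**
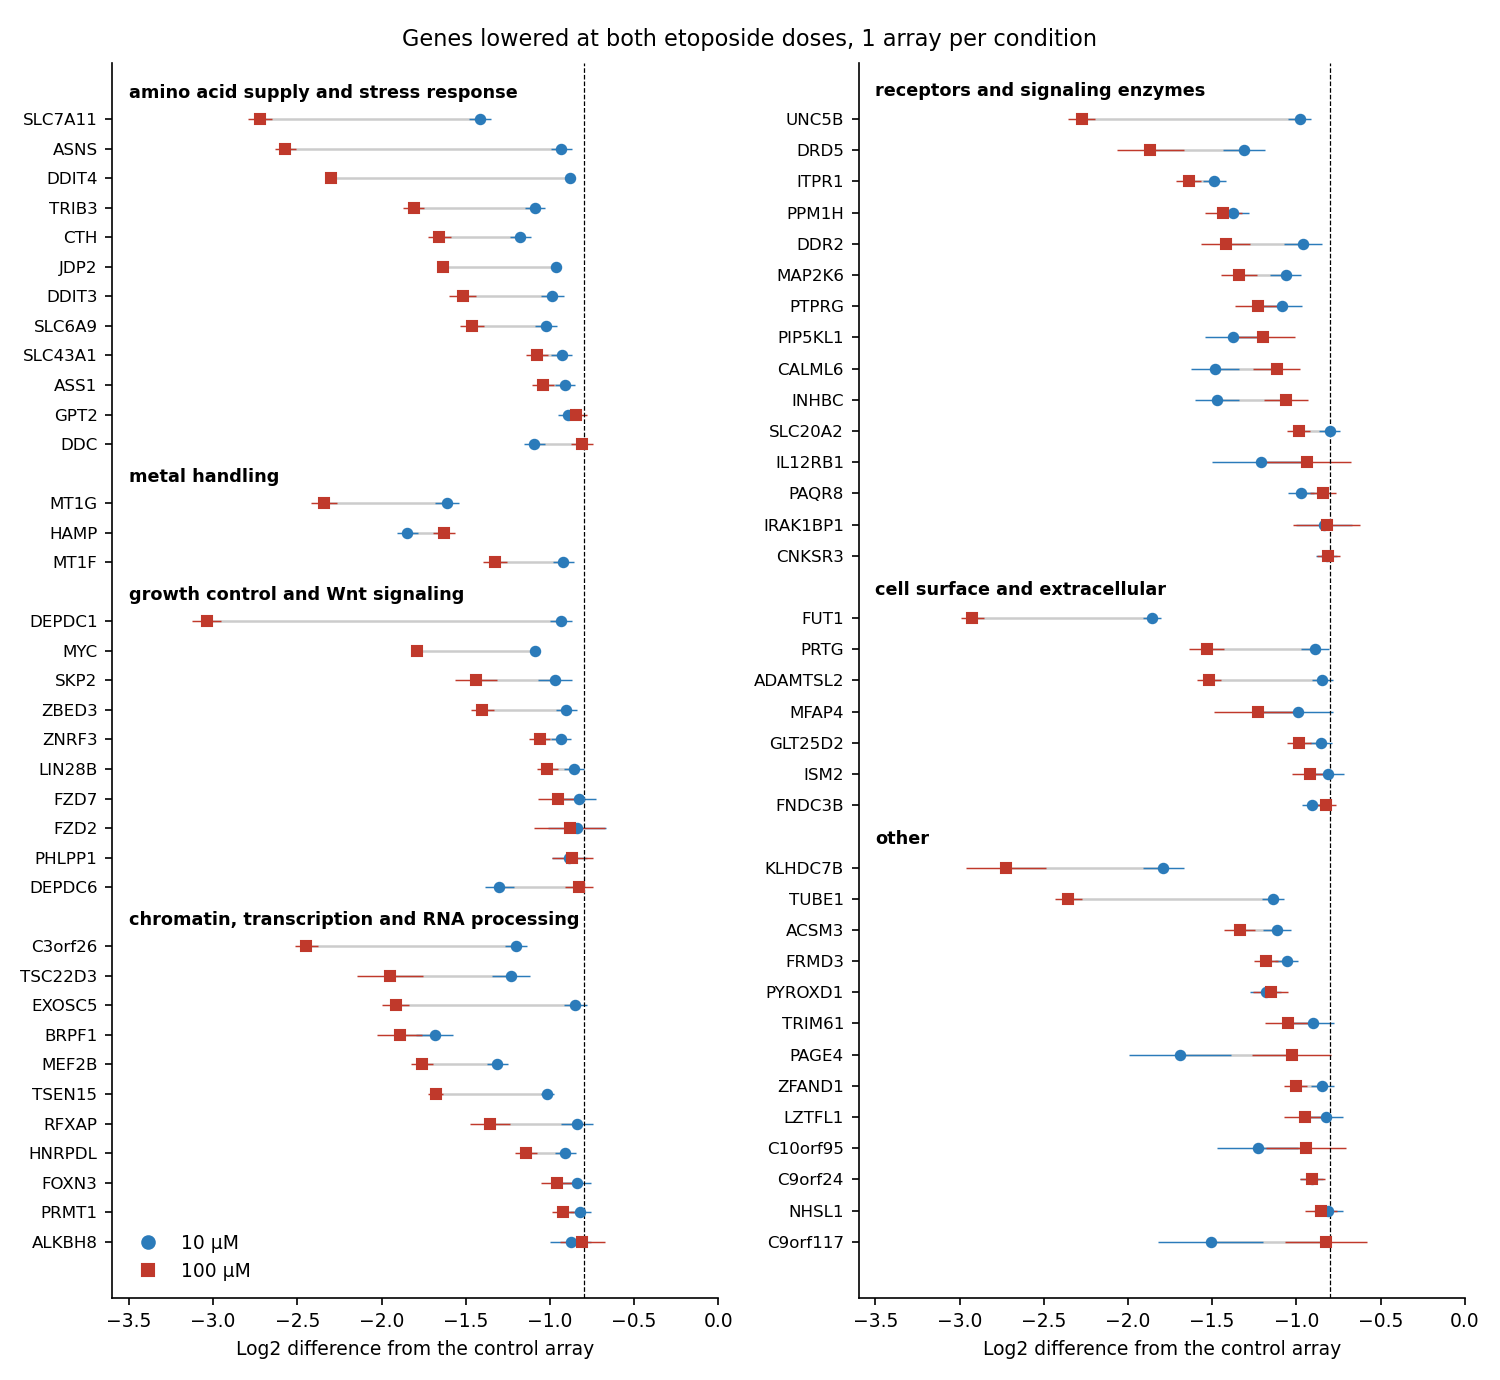
Log2 difference from the control array for 71 of the 72 genes by group, at 10 μM (blue circles) and 100 μM (red squares), with a dashed line at −0.8. Bars are 1 spot SD, or the standard error of the spots for probes printed 10 times. The amino acid and stress genes show wide gaps between doses at the top of their group (SLC7A11, ASNS, DDIT4), whereas in many receptor genes the 2 points nearly coincide.

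Because so many of these genes are known ATF4 targets, 42 genes of the ATF4 pathway were listed, a list written after the members had been seen and holding 9 of them. Of the 42, 9 (21.4%) were lowered at both doses, against 0.618% of all genes, and these are the members by the rule. At 100 μM 27 were lowered, against 5.93% of all genes, and 39 (92.9%) were below 0 at both doses, where 34.7% of all genes were. The list's median was −0.58 at 10 μM and −1.01 at 100 μM. ATF4 mRNA itself gave signals of 87328, 55008 and 36594, a log2 difference of −0.73 at 10 μM, so it missed the limit at the low dose and passed it at the high dose. Among the 33 genes of the list that are not members, 30 were below 0 at both doses and 18 were lowered at 100 μM. The largest fall among them at the high dose was in MTHFD2, a mitochondrial folate enzyme (−0.51 and −2.23). The 3 exceptions to a fall at both doses were ATF3 (0.93 and −0.41), CBS (0.08 and −0.37) and SESN2 (0.07 and −0.56).

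**Figure D3:**
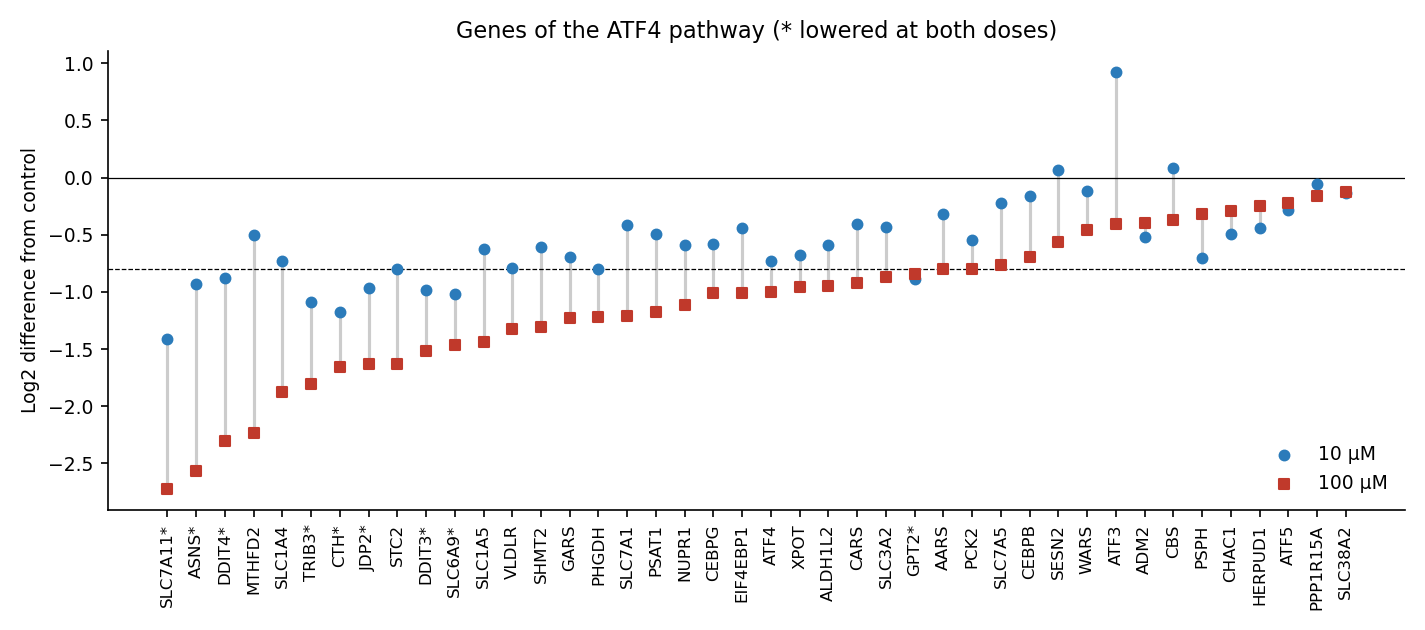
Log2 difference from the control array for the 42 genes of the ATF4 pathway at 10 μM (blue circles) and 100 μM (red squares), ordered by the high dose; asterisks mark the 9 genes lowered at both doses and the dashed line is −0.8. All 42 red squares lie below 0, and 3 blue circles lie above it.

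Metal handling gave 3 genes. HAMP was among the most lowered at the low dose, with signals of 14750, 4280 and 4005, which is 27.8% of control at 10 μM and 32.3% at 100 μM (−1.85 ± 0.06 and −1.63 ± 0.07). On the scale used it was thus 0.22 higher at 100 μM than at 10 μM in log2, whereas its unscaled signal was lower at 100 μM. HAMP was the one member among 17 measured genes of a BMP and TGF beta target list (5.88%, against 0.618% of all genes). MT1G gave 1734, 592 and 287 and MT1F gave 2164, 1194 and 726, so MT1G fell to 32.7% and 19.7% of control and MT1F to 52.9% and 39.9%.

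The metallothionein family did not move as a whole. On 13 probes for 11 metallothionein genes, 4 were lowered at both doses (0.618% of all genes were), namely those of MT1G and MT1F and the dimmer probes of MT1H (−1.59 and −2.15) and MT1X (−1.01 and −1.06). MT1L, counted here, has no RefSeq mRNA accession, so the rule could not have kept it. The other 9 probes ranged from −0.05 to 0.90 at 10 μM and from −0.22 to 0.48 at 100 μM. MT2A, the brightest at 53235 in the control, was the highest of them at both doses. The 4 lowered probes had control signals of 153 to 2164 and the other 9 of 2065 to 53235. The genes are related in sequence. The longest run of bases that a probe shared with the probe of another metallothionein gene was 6 to 27 of 60. It was 19 for the MT1F probe and 10 for the MT1G probe. Which transcript each probe read was not tested.

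Growth control and Wnt signaling held 10 genes. DEPDC1, a gene of dividing cells that is active in many tumors, had the lowest value of the 72 genes at 100 μM, with signals of 1423, 778 and 146 (−0.93 ± 0.07 and −3.04 ± 0.09). Of 34 measured G2/M genes fixed in a list that does not hold DEPDC1, 34 were lowered at 100 μM (5.93% of all genes were) and 0 at 10 μM (2.07% of all genes). A further probe of DEPDC1, not well above background on all arrays, gave −0.35 and −2.12. MYC, a transcription factor that drives growth, gave 12506, 6132 and 3044, or 47.0% and 28.9% of control. In a list of 27 measured MYC and ribosome biogenesis genes, MYC was the one gene lowered at both doses (0.618% of all genes were), and 14 were lowered at 100 μM (5.93% of all genes). The medians of that list were −0.31 and −0.83.

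ZNRF3, a ubiquitin ligase that removes Frizzled receptors from the surface, gave 31649, 17294 and 12755 (−0.93 ± 0.06 and −1.06 ± 0.06). The receptors FZD7 (202, 119 and 87.7) and FZD2 (83.9, 48.9 and 38.3) were much dimmer, and their values lay within 2 spot SDs of the limit. These 3 genes were the members among 34 measured genes of a Wnt list (8.82%, against 0.618% of all genes), whose medians were −0.19 and −0.17. The rest of the group were SKP2, which marks the inhibitor p27 for degradation, the Axin partner ZBED3, the blocker of let-7 maturation LIN28B, the Akt phosphatase PHLPP1 and the mTOR inhibitor DEPTOR (listed as DEPDC6). SKP2 and ZBED3 were lower at the high dose (36.9% and 37.9% of control), whereas DEPTOR was lower at the low dose (40.6% against 56.3%).

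Chromatin, transcription and RNA processing held 11 genes, of which 10 were lower at the high dose. CMSS1, a ribosome biogenesis factor listed as C3orf26, gave 3150, 1430 and 486 (−1.20 ± 0.06 and −2.45 ± 0.07). BRPF1, a scaffold of histone acetyltransferase complexes, gave 268, 86.9 and 60.7 and was already at 31.1% of control at 10 μM. TSC22D3, a glucocorticoid-induced regulator, gave 182, 80.8 and 39.6. The transcription factor MEF2B reached 29.5% of control at 100 μM, EXOSC5 of the RNA exosome 26.5% and TSEN15 of the tRNA splicing endonuclease 31.3%. The other 5 (RFXAP, HNRNPDL listed as HNRPDL, FOXN3, the arginine methyltransferase PRMT1 and the tRNA methyltransferase ALKBH8) lay between 53.2% and 56.7% at 10 μM and between 39.0% and 57.2% at 100 μM.

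Receptors and signaling enzymes made the largest group with 15 genes, 8 of them lower at the high dose and 7 at the low dose. UNC5B, a netrin receptor, went from 1365 to 722 and 237, or 50.7% and 20.7% of control (−0.98 ± 0.07 and −2.28 ± 0.08). ITPR1, the calcium channel opened by inositol trisphosphate, went from 1318 to 491 and 356, nearly all of it at the low dose (−1.49 ± 0.07 and −1.64 ± 0.08). The dopamine receptor DRD5 was dim, at 167, 70.0 and 38.4. The phosphatase PPM1H stood at 38.6% and 37.0% of control and the receptor phosphatase PTPRG at 47.1% and 42.8%. The collagen receptor DDR2, the kinase MAP2K6 and the phosphate transporter SLC20A2 were also lower at the high dose. On the scale used, PIP5KL1, CALML6, INHBC, IL12RB1, PAQR8, IRAK1BP1 and CNKSR3 were lower at the low dose. The unscaled signal was lower at the low dose in CALML6 and INHBC alone. It was lower at the high dose in the others, such as PAQR8 (315 at 10 μM and 277 at 100 μM). In PIP5KL1, IL12RB1, IRAK1BP1 and CNKSR3 the scaled gap between the doses was smaller than the larger of the gene's spot SDs. The same held for PPM1H and PTPRG, which were lower at the high dose. The medians of the whole group were −1.09 and −1.20.

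Among 8 genes of the cell surface and the extracellular space, FUT1 stood out. FUT1 makes the H antigen, the precursor of the ABO blood group sugars, and gave signals of 395, 114 and 43.8, or 27.6% and 13.2% of control (−1.86 ± 0.05 and −2.92 ± 0.07). It had the lowest value of the 72 genes at 10 μM, level with HAMP within spot noise, and the second lowest at 100 μM. The matrix protein ADAMTSL2 gave 1955, 1135 and 575. PRTG, MFAP4, COLGALT2 (listed as GLT25D2), ISM2 and FNDC3B lay between 50.2% and 57.0% at 10 μM and between 34.6% and 56.4% at 100 μM.

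The last 13 genes fitted none of these groups. KLHDC7B, a kelch protein, gave 234, 70.7 and 29.8 (−1.79 ± 0.12 and −2.72 ± 0.24), and epsilon tubulin, TUBE1, gave 1666, 789 and 274 (−1.14 ± 0.07 and −2.35 ± 0.08). PAGE4 (78.0, 25.2 and 32.2) and CFAP157, listed as C9orf117 (67.7, 24.8 and 32.2), were more than 0.5 lower at 10 μM than at 100 μM. Both were close to the lowest signals called well above background, which were between 19.5 and 22.7, and their spot SDs were 0.24 to 0.31. Other dim members also came near these signals, among them IL12RB1 (28.4 at 10 μM and 27.6 at 100 μM) and C10orf95 (33.7 and 33.1). At 100 μM the same held for MFAP4 (26.2) and KLHDC7B (29.8). ACSM3, FRMD3, PYROXD1, TRIM61, ZFAND1, LZTFL1, C10orf95, SPMIP6 (listed as C9orf24) and NHSL1 lay between 42.7% and 57.0% at 10 μM and between 39.6% and 55.3% at 100 μM.

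For 5 of the 72 genes the probe was printed 10 times on each array, so the spread between spots could be seen directly. FUT1 spots ranged from 348 to 459 in the control, from 97.3 to 135 at 10 μM and from 35.7 to 56.9 at 100 μM. MYC spots ranged from 12210 to 12751, from 5947 to 6601 and from 2971 to 3253. In FUT1, MYC, DDIT4, TSEN15 and JDP2 the unscaled spots of the 3 arrays did not overlap. The rule had chosen these genes for lower values at both doses, so this describes them and is not evidence for them. The array at 100 μM also had a lower 75th percentile (432, against 514 for the control and 536 at 10 μM). Spots of 1 array are not replicates of a condition. How many of the 999 repeated probes were separated in this way was not counted. The other 67 genes rested on 1 spot per array. By the spread of similar spots, or the standard error for the 5 genes with 10 spots, 34 genes were more than 2 SDs beyond the limit at both doses. The other 38 were within 2 SDs of the limit at one dose at least.

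**Figure D4:**
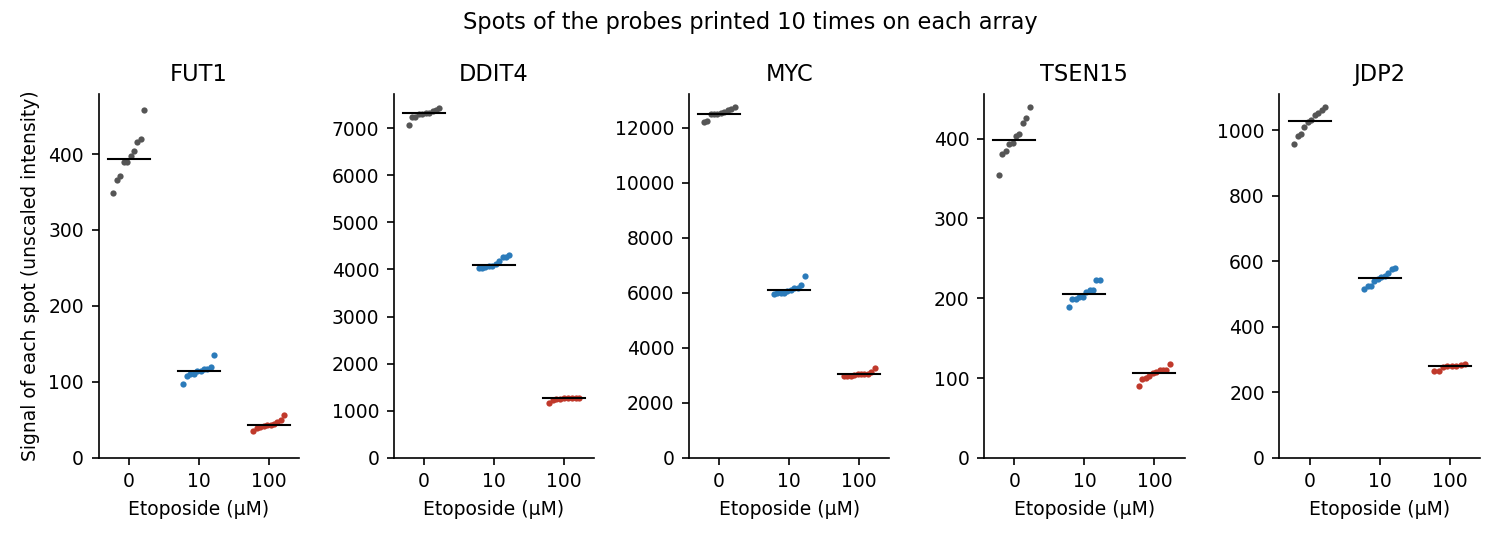
Unscaled signal of each spot at 0, 10 and 100 μM for the 5 genes whose probe was printed 10 times (fewer points where the software marked outliers), with spots sorted by signal within an array and a line at the median; the y axes start at 0 and differ between genes. In each of the 5 genes the spots at 100 μM lie below those at 10 μM, and those at 10 μM below the control.

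Some genes had further probes, which share the arrays with the probe used. Of 21 such probes, 14 (for 12 genes) were well above background on all arrays. Of these, 12 were below 0 at both doses (34.7% of all genes were), and 7 probes for 6 genes were themselves lowered at both (0.618% of all genes). They read genes already chosen as lowered on the same arrays, so the counts are not separate evidence. The further probe of ZNRF3 gave −0.93 and −1.07, that of MEF2B −1.23 and −1.53 and that of ASS1 −0.87 and −1.03. The further probes of HNRNPDL (−0.77 and −0.62) and PYROXD1 (−1.11 and −0.76) fell at both doses but missed the limit. FNDC3B and CNKSR3 were the exceptions to a fall at both doses. The further probe of FNDC3B did not show the fall (701, 759 and 703), and that of CNKSR3 was lower at 10 μM but not at 100 μM (118, 56.9 and 125). In DRD5, PTPRG and ADAMTSL2 a further probe fell less than the one used, by more than 0.8 at 100 μM, and those further probes had control signals of 57.0 to 88.0.

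Just inside the limit were SLC20A2 (−0.80 and −0.99), ALKBH8 (−0.88 and −0.81) and CNKSR3 (−0.82 and −0.81). Just outside were STC2 (−0.80 and −1.63), PHGDH (−0.80 and −1.22) and AMHR2 (−0.80 and −0.80). STC2 and PHGDH, the first enzyme of serine synthesis, are both in the ATF4 list, so that list's count of 9 depends on where the limit stands. Of 470 genes left out by name, the histone genes HIST1H2AB, HIST1H2AJ, HIST1H2AK and HIST1H2BB and the zinc finger gene ZNF643 would also have met the limit.

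Gene length (the span in the RefSeq table) was not used to choose the genes. The 72 genes spanned a median of 34.3 kb, against 27.7 kb for all genes, and 21 of them (29.2%) were longer than 100 kb, against 16.2% of all genes. Genes lowered at 10 μM but not at 100 μM had a larger share above 100 kb (34.3% of 169), those lowered at 100 μM but not at 10 μM a smaller one (12.2% of 617) and those raised at both doses the smallest (6.07% of 313). Among the members the share was highest in receptors and signaling enzymes (53.3% of 15) and was 8.33% in the 12 genes of amino acid supply and stress response. The longest was PTPRG at 736 kb, followed by FOXN3 at 463 kb, CMSS1 at 364 kb, FNDC3B at 362 kb and ITPR1 at 354 kb.

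**Figure D5:**
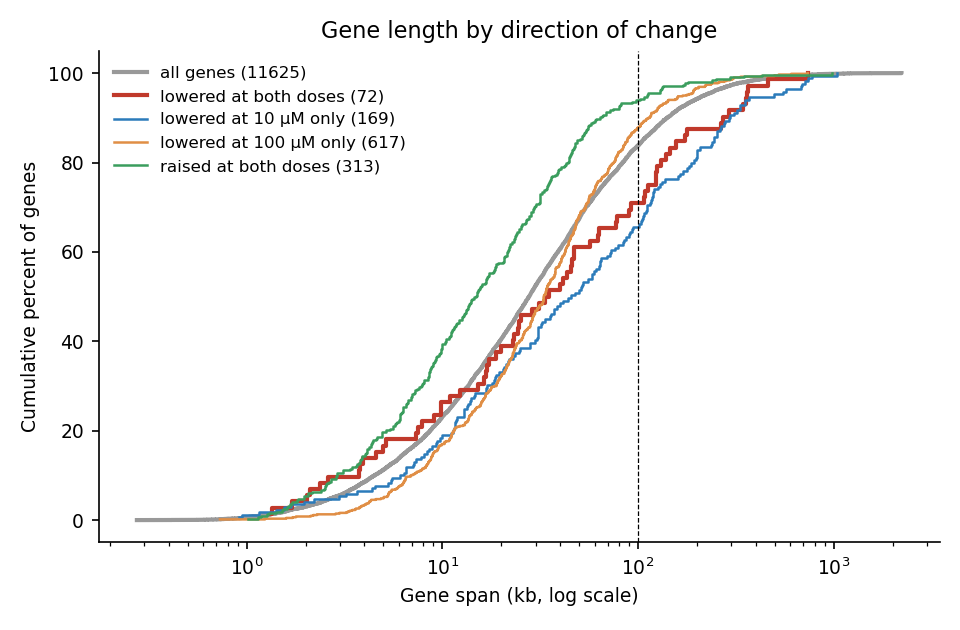
Cumulative percent of genes against gene span (kb, log axis) for all genes and for genes by direction, with a dashed line at 100 kb. The red line of the 72 genes meets 100 kb with 29.2% of genes still above it, between the genes lowered at 10 μM alone (34.3%) and all genes (16.2%), and the line of genes raised at both doses meets it with 6.07%.

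Other letters were searched in the same promoters, on both strands. The cell cycle element CHR (TTTGAA) stood in 10 of 53 (18.9%, against 9.39% of all), E-boxes (CACGTG) in 15.1% against 10.3%, the CCAAT box in 35.8% against 35.9% and the TATA box (TATAAA) in 5.66% against 5.93%. E2F letters (TTTGGCGC, TTTCGCGC, TTTCCCGC or TTTGGCGG) were in 0 of 53, against 5.33% of all genes, and the TCF/LEF letters CTTTGAT in 0 of 53, against 142 of 9467. The letters TTTAAA stood in 9.43% against 7.10%, the CRE letters TGACGTCA in 1.89% against 3.14% and the metal response letters TGCACNC or TGCGCNC in 43.4% against 38.2%. The median GC content was 63.3% for the members and 65.3% for all genes. Pairs of members that lie near each other on hg18 were MT1G and MT1F, whose probes are 7557 bases apart on chromosome 16, INHBC and DDIT3 (67016 bases, chromosome 12), TSEN15 and COLGALT2 (137303 bases, chromosome 1) and PIP5KL1 and CFAP157 (207586 bases, chromosome 9).

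The scaling of the arrays bears on which genes were kept. Of the 72 genes, 49 were below the limit at both doses under each of the 6 other scalings tried, among them FUT1, SLC7A11, ASNS, TRIB3, DDIT3, MYC, HAMP, MT1G and ZNRF3. The 23 that missed it under at least one include FZD7, FZD2, EXOSC5, ADAMTSL2, FNDC3B, GPT2, DDC, LIN28B and PRMT1. The lower value at the high dose was found in 53 of the 72 genes with the scaling used, and in 50 to 67 with the others.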

How the data were processed

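RNA of HepG2 cells was measured on 3 single-color (Cy3) Agilent arrays, 1 per condition. The authors deposited scanner files written by Agilent Feature Extraction 10.7.3.1, in which the intensity of each spot had been corrected for background within its array and not scaled between arrays. From this intensity, log2 values were averaged over the spots of a probe without the outlier spots, and the 75th percentile of the array was subtracted, taken over 34127 probes. Genes needed a RefSeq mRNA accession and a signal well above background on all 3 arrays, and were represented by their brightest probe. This left 12114 genes, of which 470 with names starting HIST, KIF, CYP or ZNF were left out. Genes with a log2 difference below −0.8 at both doses were kept.

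The members and the lists were chosen with earlier results of these data known. The groups, the ATF4 and metallothionein lists and the CARE and metal response letters were chosen after the values were seen. Genes named with values are the 15 with the lowest sum of differences, up to 5 per list, those whose probes differ by more than 0.8 and those lower at 10 μM by more than 0.5. Further members were named to account for the 72, of which 1 is not reported here.

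For probes printed once, the spot SD came from the 50 repeated probes nearest in signal, out of 999. For the 5 members whose probe was printed 10 times, the standard error of their own spots took its place. Either covers spot noise within the arrays and not cultures. Symbols, gene lengths and promoters came from RefSeq tables (GRCh38.p14), and probe positions from the files (hg18). A length was found for 11625 of 11644 genes and a promoter for 9467. The conditions were compared without a test, since there was 1 array for each. The steps were tested on simulated arrays. Alternatives were other scalings, normexp background correction, other filters, probes and limits, and the series table. Normexp was run with limma 3.58.1 under R 4.3.3, and all else with numpy 2.4.6, scipy 1.17.1 and pandas 2.3.3 under Python 3.11.15.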

Additional observations from a re-analysis of the deposited data

How the results depend on the processing

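No paired analysis was possible because there was 1 array for each condition. Of the 11644 genes, 72 were lowered at both doses with the settings used. This became 139 with scaling to the median, 44 with normexp background correction, 119 when a signal above background was asked of the control array alone (12186 genes), 228 at a limit of −0.6 and 27 at −1. For 10 μM the 241 genes became 120 with normexp, 560 at −0.6 and 112 at −1. For 100 μM the 690 genes became 1366 without scaling, 1507 with the median, 1074 with spike-in controls, 1167 at −0.6 and 421 at −1. The median difference between the doses among the 72 genes, −0.16, became −0.47 without scaling, −0.43 with the median, −0.29 with quantile normalization and −0.38 with spike-in controls. These scalings move the median of all genes at 100 μM from 0.05 to −0.20 (none), −0.24 (median) and −0.12 (spike-in), and normexp adds an offset of 50 before the log2 is taken. With normexp, 40 of the 72 genes stayed below the limit. Of the 42 genes of the ATF4 list, 38 or 39 were below 0 at both doses under each alternative, with medians at 100 μM from −1.30 to −0.92. The share of lowered genes longer than 100 kb ranged from 22.4% to 34.6%. The series table gave the same values as the scanner output. Of the 72 genes, 67 rest on 1 spot per array and 7 had a control signal under 100.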
